A study of Mus musculus with 4 samples.

Results

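Open chromatin was measured by ATAC-seq, an assay that inserts sequencing adapters into accessible DNA with a transposase, and is described here at the genes of the matrix metalloproteinases (Mmp), the Adamts proteases, the Adamts-like proteins (Adamtsl) and the tissue inhibitors of metalloproteinases (Timp). The members were the protein-coding genes of the GENCODE vM21 basic annotation (mm10) named for these families, 50 of 21827 in all, of which 22 were Mmp, 19 Adamts, 5 Adamtsl and 4 Timp genes. Mmp1a, a collagenase gene annotated as a polymorphic pseudogene, was not among them. Each member was given the regions whose midpoint lay nearest to its transcription start site (TSS) among all protein-coding TSSs, plus any region overlapping 1 kb either side of its TSSs. This rule need not name the gene that a region regulates. It gave 533 of 121574 regions, with 8012 reads or 0.349% of the reads in regions. No region was shared by a pair of members, and none was nearest to another gene.

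The cells were dental mesenchyme from incisors of untreated wild-type C57BL/6 mice aged 4 weeks, the only group. Its 4 deposited samples were lanes whose values stood under 1 shared name, so they form 1 library. Nothing measures the spread between animals, and no conditions could be tested against each other. The library held 2297894 reads in regions, with a median of 7 reads a region and 61 reads a protein-coding gene. Intervals are exact 95% Poisson intervals and cover counting error alone. Accessibility is not transcription, and a gene without a listed region is not shown to be closed. Fewer cells with an open site and less accessibility per cell cannot be told apart. All 7 dental mesenchyme markers had more reads than the median gene, from 69 at Barx1 to 1061 at Msx2, and 6 of the 7 had a region at a promoter.

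Mmp proteins are zinc-dependent enzymes that are secreted or held at the cell surface and cut collagens, gelatin and other matrix proteins. Adamts proteins are secreted relatives that trim procollagens or cut proteoglycans such as aggrecan and versican, Adamtsl proteins share their ancillary domains without a protease domain and bind fibrillin-rich matrix, and Timp proteins block the active site of Mmp and some Adamts enzymes. In teeth these enzymes turn over the matrix of the pulp and of forming dentin and enamel; Mmp20, or enamelysin, is the enamel matrix protease of ameloblasts, the epithelial cells that lay down enamel.

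The groups differed in how much open chromatin surrounded their genes. The 19 Adamts genes had a median of 222 reads over 19 regions, and 16 of them exceeded the median gene. The 5 Adamtsl genes had a median of 119 reads and 4 exceeded it. The 4 Timp genes had a median of 65 reads and 2 exceeded it, with Timp3 far apart from the rest. The 22 Mmp genes had a median of 40.5 reads over 3.5 regions, and 8 exceeded the median gene. Over all protein-coding genes, 49.9% had more reads than the median gene, which had 3 regions. At least 1 region was found for 17 of 22 Mmp, 18 of 19 Adamts, 5 of 5 Adamtsl and 4 of 4 Timp genes, against 78.9% of all protein-coding genes. The 6 members without a listed region were Mmp1b, Mmp8, Mmp10, Mmp12, Mmp21 and Adamts13. A region overlapped a promoter window in 12 of 22 Mmp, 17 of 19 Adamts, 4 of 5 Adamtsl and 4 of 4 Timp genes, against 64.6% of all protein-coding genes.

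**Figure D1:**
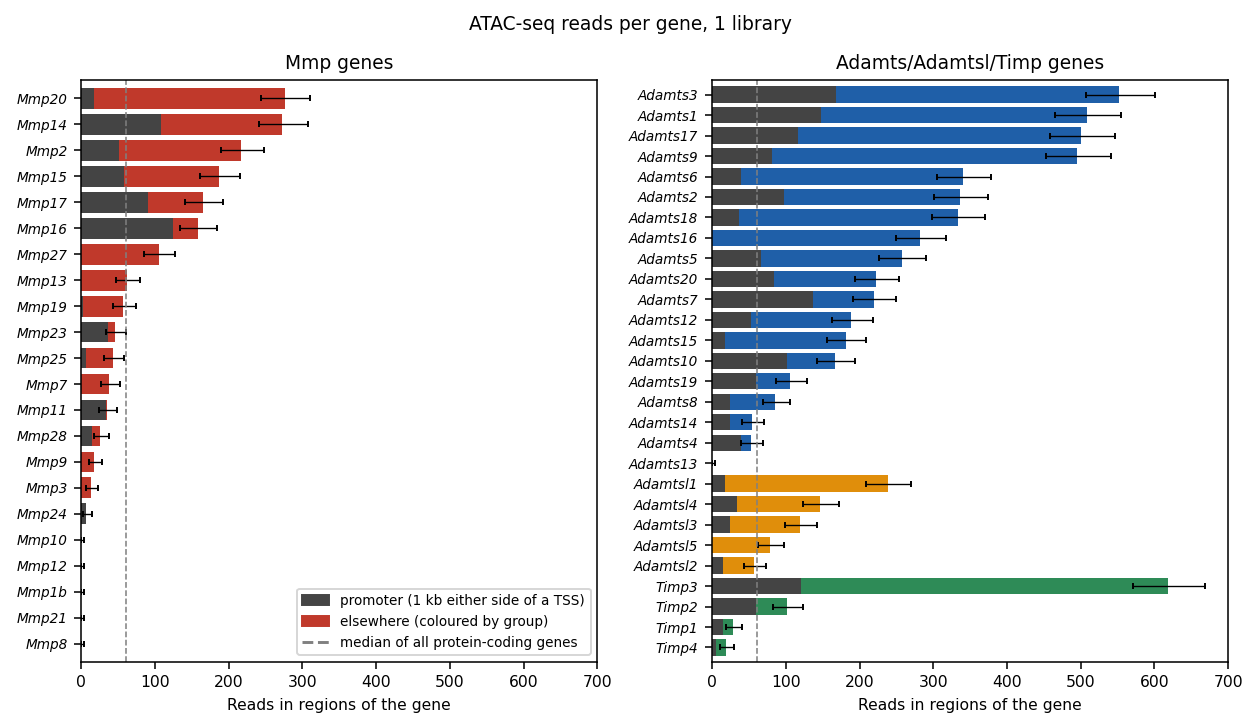
Reads in the regions of each of the 50 genes (horizontal axis), split into promoter reads (dark) and reads elsewhere (coloured by group), with exact 95% Poisson intervals of the total; the dashed line is the median protein-coding gene, 61 reads. Timp3 (618 reads) and Adamts3 (552) reach furthest, whereas 14 of the 22 Mmp genes lie below the line.

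The groups also differed in territory. The distance to neighbouring TSSs sets how much sequence is nearest to a gene, and this span had a median of 201 kb for Adamts genes, 40.4 kb for Adamtsl, 51.6 kb for Timp and 42.4 kb for Mmp genes, against 47.4 kb for all protein-coding genes. Per 100 kb of span the group medians lay closer together, at 114 reads for Adamts, 162 for Adamtsl, 168 for Timp and 112 for Mmp genes, and 91.1 for all protein-coding genes. On this scale the Mmp median was above that of all genes and not below it. The Mmp genes were split, however. The 9 in the chromosome 9 cluster described below had a median of 22.7 reads per 100 kb, and the 13 elsewhere had 195. Mmp14 stood highest among the members, with 1467 reads per 100 kb over a span of 18.6 kb, more than 96.4% of genes. Mmp16 and Adamts5 stood low, with 10.7 and 33.1 reads per 100 kb over 1479 and 776 kb.

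**Figure D2:**
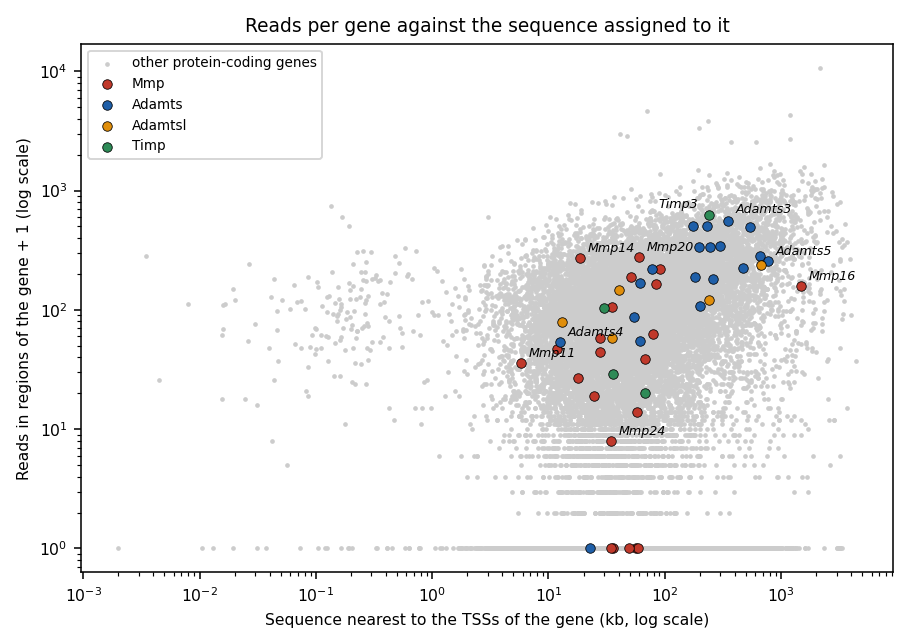
Reads in the regions of a gene plus 1 (vertical axis, log scale) against the sequence nearest to its TSSs in kb (horizontal axis, log scale) for all protein-coding genes (grey) and the members (coloured by group). Adamts genes cluster at long spans (median 201 kb) and Mmp genes at short ones (median 42.4 kb), and members with no region lie at the bottom.

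Promoter accessibility followed CpG content. A TSS was called CpG-rich when the observed CpG count in 1 kb about it was at least 0.6 of the count expected from its C and G content, a limit met by 50.6% of all protein-coding genes. All 22 members with a CpG-rich TSS had a promoter region, against 94.4% of such genes overall. Of the 28 members without one, 15 had a promoter region, against 34.1% of such genes overall. CpG-rich TSSs were found in 13 of 19 Adamts, 1 of 5 Adamtsl, 2 of 4 Timp and 6 of 22 Mmp genes. Among CpG-poor promoters, that of Adamts5 (observed to expected ratio 0.30) had 67 reads, that of Adamts12 (0.30) had 53 and that of Mmp2 (0.46) had 51. Mmp24, with the ratio 0.87, had only 7 reads (2.81 to 14.4).

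**Figure D3:**
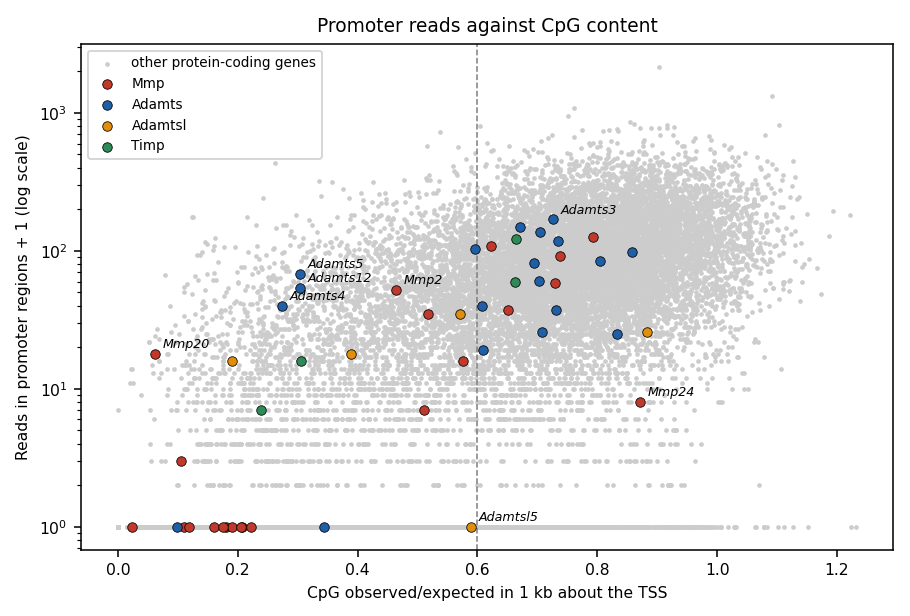
Reads in promoter regions plus 1 (vertical axis, log scale) against the observed to expected CpG ratio in 1 kb about the TSS (horizontal axis; the highest value where a gene has several TSSs) for all protein-coding genes (grey) and members (coloured by group); the dashed line marks 0.6. Every member right of the line has promoter reads, and 13 of the 28 members left of it lie at 0.

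The CpG call was made over 1 kb, and the letters of a shorter promoter sequence need not follow it. The next 6 sequences, from RefSeq (GRCm38.p6, the mm10 build), run from 250 bases before to 50 after a TSS, 5′ to 3′ on the strand of the gene. They are the promoter with the most reads in each group among the 35 members in the RefSeq promoter table, beside those of the tissue-restricted proteases Mmp13 and Mmp20. Capitals mark matches on either strand to the AP-1 motif TGANTCA, the Runx motif TGTGGT, the ETS motif AGGAAG, the TATA box TATAAA and the GC box GGGCGG. A match is a description of the letters and not a bound site.
Adamts3, chr5:89883285-89883584, minus strand: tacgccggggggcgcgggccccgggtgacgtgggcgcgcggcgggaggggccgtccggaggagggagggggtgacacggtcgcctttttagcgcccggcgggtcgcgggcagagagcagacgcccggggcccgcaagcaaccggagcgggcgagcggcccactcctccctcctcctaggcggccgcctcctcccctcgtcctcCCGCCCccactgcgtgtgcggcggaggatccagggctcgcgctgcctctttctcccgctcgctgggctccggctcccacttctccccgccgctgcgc
Mmp14, chr14:54431348-54431647, plus strand: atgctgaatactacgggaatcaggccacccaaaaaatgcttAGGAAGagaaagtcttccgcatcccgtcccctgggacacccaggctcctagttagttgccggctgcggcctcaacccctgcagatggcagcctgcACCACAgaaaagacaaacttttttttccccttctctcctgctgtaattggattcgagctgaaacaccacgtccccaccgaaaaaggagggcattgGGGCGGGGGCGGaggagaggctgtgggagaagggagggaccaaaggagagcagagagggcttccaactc
Timp3, chr10:86300162-86300461, plus strand: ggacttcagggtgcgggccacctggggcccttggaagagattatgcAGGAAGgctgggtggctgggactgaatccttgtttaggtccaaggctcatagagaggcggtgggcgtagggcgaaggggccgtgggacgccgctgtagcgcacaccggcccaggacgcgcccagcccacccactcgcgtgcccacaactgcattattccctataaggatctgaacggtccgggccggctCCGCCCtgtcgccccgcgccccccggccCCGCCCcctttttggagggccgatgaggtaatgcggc
Adamtsl4, chr3:95687868-95688167, minus strand: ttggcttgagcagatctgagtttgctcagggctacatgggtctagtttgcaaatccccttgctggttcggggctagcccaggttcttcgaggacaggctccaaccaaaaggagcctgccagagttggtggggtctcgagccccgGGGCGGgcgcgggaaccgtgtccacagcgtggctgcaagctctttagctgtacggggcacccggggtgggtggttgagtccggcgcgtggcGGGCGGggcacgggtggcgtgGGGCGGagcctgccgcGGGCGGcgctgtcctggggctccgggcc
Mmp13, chr9:7272264-7272563, plus strand: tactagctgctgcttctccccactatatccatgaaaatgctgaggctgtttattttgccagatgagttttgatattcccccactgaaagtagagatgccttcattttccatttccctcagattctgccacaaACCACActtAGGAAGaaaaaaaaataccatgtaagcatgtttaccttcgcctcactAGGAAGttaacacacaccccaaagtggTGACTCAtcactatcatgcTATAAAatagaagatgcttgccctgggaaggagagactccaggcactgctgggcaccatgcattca
Mmp20, chr9:7627981-7628280, plus strand: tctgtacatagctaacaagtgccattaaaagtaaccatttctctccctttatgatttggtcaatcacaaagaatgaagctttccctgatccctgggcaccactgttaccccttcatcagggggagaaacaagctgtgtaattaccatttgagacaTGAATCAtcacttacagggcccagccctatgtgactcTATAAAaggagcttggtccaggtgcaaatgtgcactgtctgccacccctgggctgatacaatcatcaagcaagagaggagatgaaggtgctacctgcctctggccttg
The Adamts3 sequence held 41 CpG pairs and 1 GC box, and its promoter had 168 reads (144 to 195). The Adamtsl4 and Timp3 sequences held 24 CpG pairs each, with 4 and 2 GC boxes, although Adamtsl4 (ratio 0.57) was not called CpG-rich. The Mmp14 sequence, of a gene called CpG-rich, held 10 CpG pairs and 2 GC boxes. The Mmp13 sequence held 1 CpG pair, no GC box, and an AP-1, a Runx and a TATA match with 2 ETS matches, and no region lay at the Mmp13 promoter. The Mmp20 sequence held no CpG pair, 1 AP-1 and 1 TATA match, and its promoter had 17 reads (9.90 to 27.2). Among the 35 tabulated members a TATA match was found in 10 promoters, against 14.2% of all RefSeq promoters of this length. An AP-1 match was found in 6, against 7.93%, and all 6 were Mmp genes of the chromosome 9 cluster described below. A GC box was found in 21 of the 35 and in none of the 9 cluster promoters, against 35.9% of all RefSeq promoters.

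All 6 membrane-type Mmp genes had a promoter region, against 64.6% of all protein-coding genes, and 4 of the 6 exceeded the median gene, against 49.9%. A CpG-rich TSS was found in 5 of the 6, and 94.4% of all genes with such a TSS had a promoter region. These enzymes sit at the cell surface, where Mmp14 cuts collagen and activates the proenzyme of Mmp2 with the help of Timp2. Mmp14 had 273 reads (242 to 307), 108 of them at its promoter. Mmp15 had 187 (161 to 216), with 58 at its promoter and 65 in an intronic region 17.6 kb downstream. Mmp17 and Mmp16 had 165 and 158 reads, with 91 and 125 at their promoters. Mmp25, first known from leukocytes, had 43 reads with 6 at the promoter, and Mmp24, known from neurons, had 7 reads in its single region. The 2 other genes of the Mmp2 activation complex were open as well, Mmp2 with 217 reads (189 to 248) and Timp2 with 102 (83.2 to 124).

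The Mmp14 signal came in a pair of regions of like size. The promoter region, chr14:54431285-54431960, had 101 reads, and a region 12.1 kb downstream of the TSS, chr14:54443236-54444196 in an intron of Mmp14, had 102 (83.2 to 124). The middle 300 bases of the intronic region are shown because it was the Mmp14 region with the most reads; the capitals mark its 1 Runx match.
Mmp14 intron, chr14:54443566-54443865, plus strand: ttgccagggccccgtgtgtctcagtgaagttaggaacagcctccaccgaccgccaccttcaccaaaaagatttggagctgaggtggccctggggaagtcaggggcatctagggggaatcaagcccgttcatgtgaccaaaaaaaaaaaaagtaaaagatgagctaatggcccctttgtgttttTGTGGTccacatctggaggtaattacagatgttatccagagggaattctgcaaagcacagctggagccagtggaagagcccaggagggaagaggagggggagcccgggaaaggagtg

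The gelatinases, which degrade denatured collagen and basement membrane, were unequal. Of the Mmp2 reads, 51 lay at the promoter and the largest region, with 68 reads, lay 29.6 kb upstream (chr8:92797380-92797967). A region 8.95 kb upstream had 49. Mmp9, which is abundant in osteoclasts and leukocytes, had 18 reads (10.7 to 28.5) over 2 regions and no promoter region. None of the 4 osteoclast markers exceeded the median gene, against 49.9% of all protein-coding genes. The 4 markers had no region at Acp5 or Calcr, 4 reads at Ocstamp and 35 at Dcstamp. Their part in the Mmp9 value was not tested.

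Collagenases open the triple helix of fibrillar collagen, and stromelysins cut a broad range of matrix proteins. Of the 3 collagenase genes 1, Mmp13, exceeded the median gene, with 62 reads against 61. No stromelysin gene did, against 49.9% of all protein-coding genes. None of the 3 collagenase genes had a promoter region, against 64.6% of all protein-coding genes. None of the 3 had a CpG-rich TSS, and 34.1% of all genes without such a TSS had a promoter region. Mmp13, the collagenase of bone and cartilage remodelling, had 62 reads (47.5 to 79.5) over 6 regions, and Mmp8 and Mmp1b had no region. Of the stromelysin genes, Mmp11 had 35 reads with 34 at its promoter, Mmp3 had 13 reads in a single intronic region and Mmp10 had none. Only 5.77 kb is nearest to the Mmp11 TSSs, and its 607 reads per 100 kb exceeded those of 89.8% of genes. The remaining Mmp genes ran from no region at Mmp12 and Mmp21 to 276 reads at Mmp20. Mmp19 had 57 reads, 48 of them in a region 11.4 kb upstream and 2 at its promoter. Mmp23 had 46 and Mmp28 26. Mmp12, or macrophage elastase, and Mmp8, or neutrophil collagenase, are known from leukocytes. None of the 6 leukocyte markers had a CpG-rich TSS or a promoter region, against a promoter region in 34.1% of all genes without such a TSS. The median gene was exceeded by 1, Ptprc, against 49.9% of all protein-coding genes. Ptprc had 591 reads over a span of 657 kb, or 90.0 per 100 kb, against a median of 91.1 over all protein-coding genes. Cd68 had no region. The part of leukocytes in these values was not tested.

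Adamts genes that cut proteoglycans had a promoter region in all 7 cases, against 64.6% of all protein-coding genes, and 6 exceeded the median gene, against 49.9%. A CpG-rich TSS was found in 5 of the 7, and 94.4% of all genes with such a TSS had a promoter region. Adamts1, which cuts versican and aggrecan, had 508 reads (465 to 554) over 21 regions, with 148 at its promoter. Adamts9 had 495 (452 to 541) over 39 regions, with 81 at its promoter, and its largest region away from it had 62 reads in its own intron 1.96 kb downstream. Adamts5, the main aggrecanase of mouse cartilage, had 257 (227 to 290) over 19 regions, and Adamts20 had 222. Adamts15 had 181, Adamts8 had 86 and Adamts4 had 53 (39.7 to 69.3), the fewest in this role. Adamts4 is boxed in by neighbours, with 12.4 kb nearest to its TSSs, and per 100 kb its 426 reads exceeded those of 84.9% of genes, whereas Adamts5 exceeded 33.1%.

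The region with the most reads of all 533 lay in the body of Adamts1. It ran over chr16:85800753-85801655, an intron 1.91 kb downstream of the TSS, and had 169 reads (144 to 196), against 103 in the promoter region beside it. Its middle 300 bases, shown as the member region with the most reads, held no match to any motif searched and no repeat-masked base.
Adamts1 intron, chr16:85801054-85801353, plus strand: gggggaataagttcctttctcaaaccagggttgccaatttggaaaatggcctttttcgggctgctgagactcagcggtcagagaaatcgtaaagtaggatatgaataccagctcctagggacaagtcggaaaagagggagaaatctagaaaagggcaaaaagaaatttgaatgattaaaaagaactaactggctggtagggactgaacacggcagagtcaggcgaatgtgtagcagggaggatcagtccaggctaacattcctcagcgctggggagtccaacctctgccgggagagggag
Adamts5 lies next to Adamts1 on chromosome 16, 98.7 kb from it between TSSs, and 12 regions with 267 reads lay between the TSSs. Adamts15 and Adamts8 form a second neighbouring pair on chromosome 9, with TSSs 20.1 kb apart and 73 reads in the 7 regions between them.

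The procollagen N-propeptidases, which trim fibrillar procollagens, were led by Adamts3, the Adamts gene with the most reads, 552 (507 to 600) over 24 regions. A region 42.9 kb upstream of its TSS, chr5:89925909-89926575, had 114 reads, against 107 in the largest promoter region. Adamts2 had 336 reads (301 to 374) and Adamts14 had 54 (40.6 to 70.5). The intervals of the 3 genes did not overlap. Per 100 kb of span the order was different, with 170 reads at Adamts2, 158 at Adamts3 and 88.1 at Adamts14. Adamts7 and Adamts12, which cut Comp, the cartilage oligomeric matrix protein, had 219 and 189 reads; 137 of the Adamts7 reads and 53 of the Adamts12 reads lay at the promoter. Adamts13, the plasma protease of von Willebrand factor made mainly in liver, had no region. In the other 6 Adamts genes reads ran from 106 at Adamts19 to 501 (458 to 547) at Adamts17. All 6 exceeded the median gene, against 49.9% of all protein-coding genes, and their median span was 237 kb, against 47.4 kb. Per 100 kb of span their median was 125 reads, against 91.1 over all protein-coding genes. Adamts16 with 42.5 and Adamts19 with 52.6 lay below 91.1, and the others lay above it. Adamts17 had 110 reads in its main promoter region and 99 in an intronic region 18.9 kb downstream. Adamts18 had 333 reads, 75 of them in an intronic region 92.5 kb downstream. Adamts16 had 282 reads (250 to 317) over 33 regions, none at its promoter, and its largest region had 30 reads 264 kb upstream.

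Adamts regions lay far out. Of the 299 Adamts regions away from promoters, 121 were over 100 kb from the nearest TSS, and the farthest lay 703 kb away. Among all regions of a group, promoters included, 35.7% of Adamts, 35.6% of Adamtsl, 12.2% of Timp and 2.33% of Mmp regions lay that far, against 22.1% of all regions. For Adamts6, 3 regions 224 to 246 kb downstream of the TSS had 63, 61 and 50 reads, against 39 in all at its promoter. With regions within 100 kb of the nearest TSS alone, Adamts6 had 47 reads in place of 340, Adamts16 96 in place of 282, Adamts9 211 in place of 495 and Adamtsl1 63 in place of 238. Adamtsl3 had 111 in place of 119, and Adamtsl2, Adamtsl4 and Adamtsl5 were unchanged, so the far Adamtsl reads were mostly those of Adamtsl1. Of all 533 member regions, 12 (2.25%) had at least 100 reads, against 3.73% of all regions. Away from promoters 5 of 458 (1.09%) did, against 0.687% of all such regions. Those 5 were regions of Adamts1, Mmp20, Adamts3, Mmp27 and Mmp14.

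**Figure D4:**
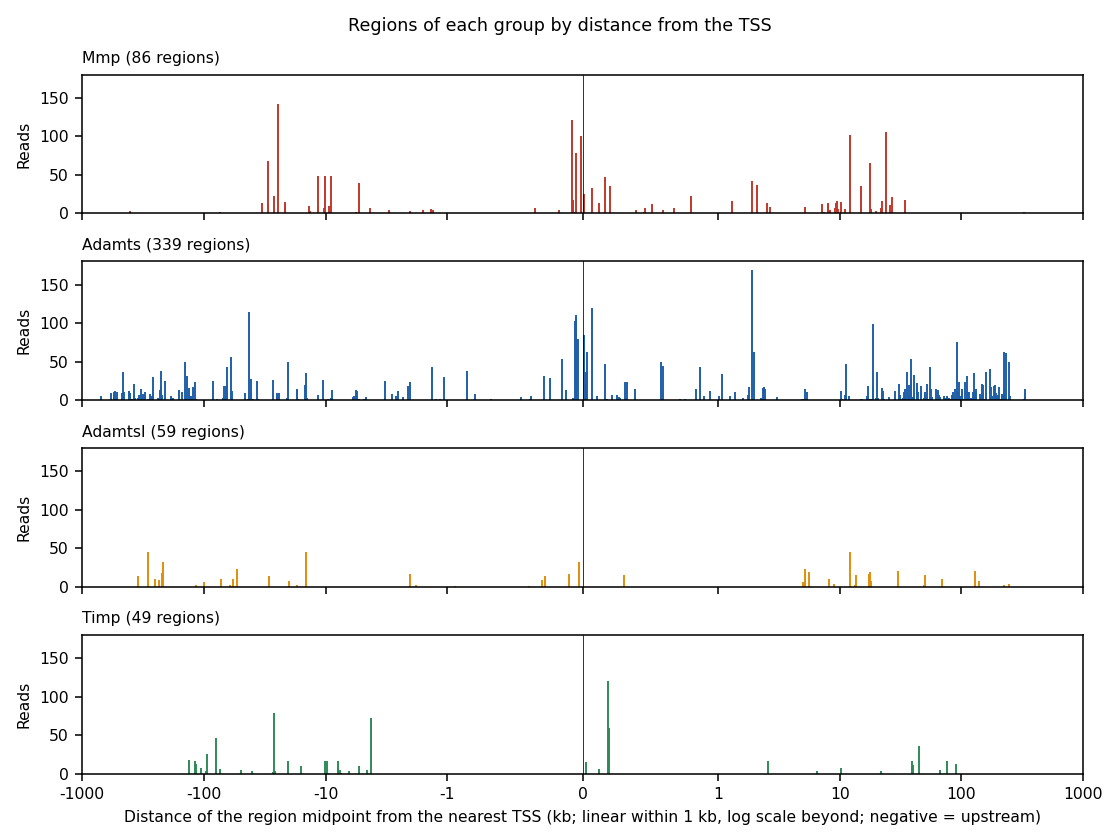
Reads of each member region (vertical axis) against the distance of its midpoint from the nearest TSS in kb (horizontal axis, linear within 1 kb and log scale beyond, negative values upstream), by group. Of the 339 Adamts regions 121 lie beyond 100 kb, against 2 of the 86 Mmp regions.

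Adamtsl genes had modest promoters. Adamtsl1 had 238 reads (209 to 270) over 25 regions, of which 17 were at its promoter, and its largest region, with 46 reads, lay in its own intron 286 kb upstream of the nearest TSS. Adamtsl4, which acts in the fibrillin matrix of the eye, had 146 reads (123 to 172), with a pair of intergenic regions of 46 and 45 reads 12.1 kb downstream and 14.4 kb upstream. Adamtsl3 had 119 reads (98.6 to 142), 24 of them in an intron of Sh3gl3 53.1 kb upstream. Adamtsl5 had 78 (61.7 to 97.3), none at its promoter, and Adamtsl2, mutated in a human dysplasia of short stature, had 57 (43.2 to 73.9).

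Among the inhibitors, Timp3 stood alone. Timp3, the Timp protein that binds to the matrix and that also blocks Adamts enzymes, had the most reads of any member, 618 (570 to 669). They came from 33 regions and exceeded those of 98.4% of genes. Timp2 had 102 reads (83.2 to 124), Timp1 had 28 (18.6 to 40.5) and Timp4 had 19 (11.4 to 29.7). The Timp1 and Timp4 intervals overlapped, and those of Timp2 and Timp3 overlapped no other Timp gene. Promoter reads numbered 121 at Timp3, 59 at Timp2, 15 at Timp1 and 6 at Timp4. Per 100 kb of span the order was different, with 342 reads at Timp2, 259 at Timp3, 77.4 at Timp1 and 28.4 at Timp4.

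Timp1, Timp3 and Timp4 lie inside synapsin genes, which run the other way. All 33 Timp3 regions lay within the body of Syn3, as did all 4 Timp1 regions within Syn1 and 4 of the 6 Timp4 regions within Syn2. After the promoter, the largest Timp3 regions had 79 reads (26.5 kb upstream), 73 reads (4.23 kb upstream) and 47 reads (79.5 kb upstream), each in an intron of Syn3. Of the 16 Timp3 regions away from the promoter with at least 10 reads, 5 held an AP-1 match in the 300 bases about the midpoint, 5 a Runx match and 5 an ETS match. Among all regions away from promoters with at least 10 reads, 10.2% held an AP-1, 26.4% a Runx and 35.8% an ETS match.

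Motif matches were counted in the 300 bases about the midpoint of each region. Of the 188 member regions away from promoters with at least 10 reads, 12.8% held an AP-1 match, against 10.2% of all regions away from promoters with at least 10 reads. A Runx match was found in 31.9%, against 26.4%, and an ETS match in 31.9%, against 35.8%. By group, among these 188 regions, AP-1 was found in 6 of 19 Timp, 5 of 22 Adamtsl, 11 of 117 Adamts and 2 of 30 Mmp regions. Runx was found in 7 of 19 Timp, 4 of 22 Adamtsl, 37 of 117 Adamts and 12 of 30 Mmp regions. Over all 458 member regions away from promoters, AP-1 was found in 10.5%, against 11% of all such regions, Runx in 27.5%, against 25.3%, and ETS in 34.5%, against 37.2%. In the 75 member promoter regions a GC box was found in 45.3%, against 55.3% of all promoter regions, and a TATA box in 6.67%, against 4.17%.

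The Mmp cluster on chromosome 9 held most of its reads between Mmp27 and Mmp20, and 1 region over the 238 kb from Mmp12 to Mmp27. It holds 9 protein-coding members from Mmp13 to Mmp7 over 427 kb, and the order is Mmp13, Mmp12, Mmp1b, Mmp3, Mmp10, Mmp8, Mmp27, Mmp20 and Mmp7. A region lay at the promoter of 1 of the 9 genes, Mmp20, against 11 of the 13 Mmp genes elsewhere and 64.6% of all protein-coding genes. None of the 9 had a CpG-rich TSS, against 6 of the 13 Mmp genes elsewhere. Of all protein-coding genes without a CpG-rich TSS, 34.1% had a promoter region, as did 5 of the 7 such Mmp genes elsewhere. With 10 kb on either side the cluster held 18 regions with 429 reads (389 to 472). That is 96.0 reads per 100 kb, against 99.0 on chromosome 9 as a whole and 84.3 in the genome. A window of this length holding a protein-coding TSS had a median of 403 reads and 24 regions over 4451 windows, of which 52.2% had fewer reads than the cluster and 37.4% fewer regions.

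The reads were unevenly placed. From the start of Mmp12 to the end of Mmp27, a stretch of 238 kb with 6 members and Mmp1a, 1 region with 13 reads (6.92 to 22.2) was listed, in an intron of Mmp3. That stretch had 5.47 reads per 100 kb, and the genome average was 15.4 times as high. In the 46.3 kb between the end of Mmp27 and the start of Mmp20, 6 regions held 333 reads (298 to 371), or 719 per 100 kb, 8.52 times the genome average. These windows were drawn after their values were seen. The 2 kb about the TSS of Mmp1b aligned to the Mmp1a locus with 97.6% identity over 247 bases. The sources used here do not say whether reads that match both copies were kept, so the lack of a region at Mmp1b is uncertain.

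**Figure D5:**
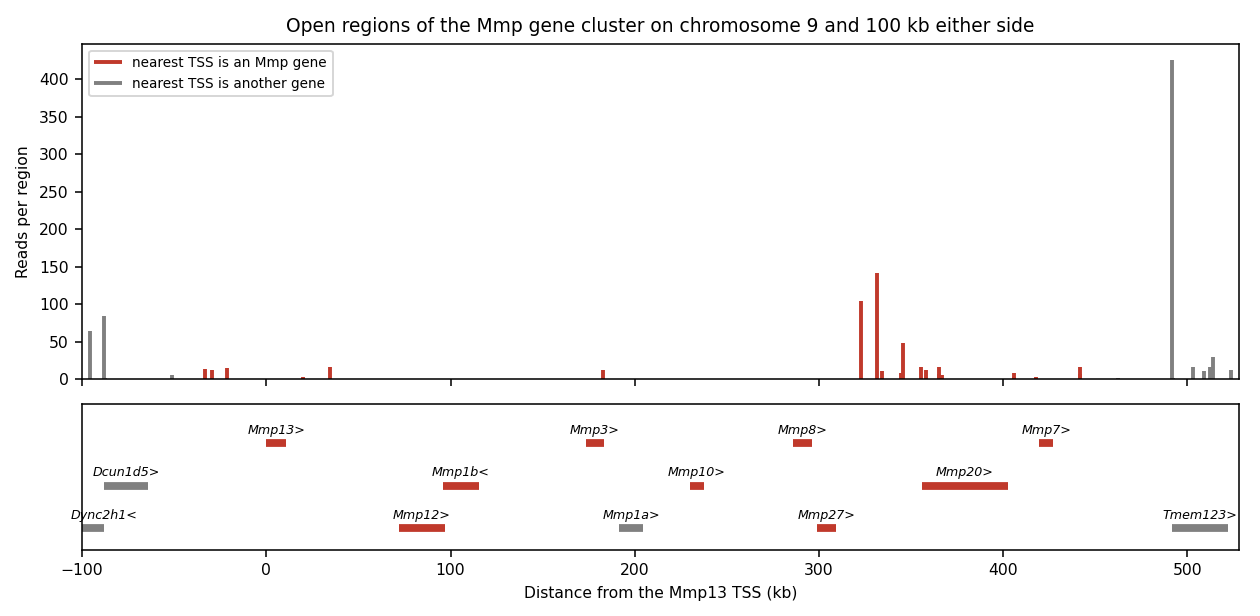
Reads of each open region (vertical axis) against distance from the Mmp13 TSS in kb (horizontal axis), with gene bodies below, arrowheads for their direction, red for Mmp members and grey for other genes and the pseudogene Mmp1a. Regions of 105, 142 and 49 reads stand between Mmp27 and Mmp20, 1 region of 13 reads stands between Mmp12 and Mmp27, and the promoter of Tmem123 beyond the cluster has 426.

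Mmp20 had the most reads of the Mmp genes, 276 (244 to 311) over 10 regions, of which 259 lay away from its promoter. The largest, chr9:7603276-7604368, had 142 reads (120 to 167) in intergenic sequence 24.4 kb upstream of the TSS, and a second, chr9:7617832-7618265, had 49 reads 10.2 kb upstream. The region given to Mmp27, chr9:7594985-7595635, had 105 reads (85.9 to 127) in intergenic sequence 23.9 kb downstream of the nearer Mmp27 TSS and was its only one. The middle 300 bases of both large regions are shown because they carried the cluster's signal. Neither held a match to the motifs searched, and 11.1% and 26.7% of the bases of the full regions were repeat-masked.
Mmp20 upstream, chr9:7603672-7603971, plus strand: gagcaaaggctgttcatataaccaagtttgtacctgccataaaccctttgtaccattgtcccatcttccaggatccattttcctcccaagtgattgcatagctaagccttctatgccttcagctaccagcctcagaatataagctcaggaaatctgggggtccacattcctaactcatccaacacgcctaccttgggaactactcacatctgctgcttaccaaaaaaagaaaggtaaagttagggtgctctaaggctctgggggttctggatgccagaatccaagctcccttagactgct
Mmp27 downstream, chr9:7595160-7595459, plus strand: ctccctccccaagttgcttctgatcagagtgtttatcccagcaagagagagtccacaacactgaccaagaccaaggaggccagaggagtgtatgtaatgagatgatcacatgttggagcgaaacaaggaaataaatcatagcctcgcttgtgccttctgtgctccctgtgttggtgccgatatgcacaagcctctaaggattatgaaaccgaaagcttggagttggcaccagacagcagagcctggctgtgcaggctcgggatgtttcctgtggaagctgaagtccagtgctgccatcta

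Markers of enamel epithelium were read beside Mmp20. Of the 7 dental epithelium genes, 4 exceeded the median gene, against 49.9% of all protein-coding genes. Among the 4 were Ambn with 188 reads, Klk4 with 156 and Krt14 with 72. Amelx had 8 reads, Enam 43 and Odam no region. Promoter regions were found at 3 of the 7, against 64.6% of all protein-coding genes, and Ambn, the ameloblastin gene, had 112 promoter reads. Their part in the Mmp20 value was not tested.

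Mmp13 carried its reads around the gene and not at its promoter. Enhancers upstream of Mmp13 are known from mouse osteoblasts. Here 4 regions lay upstream, with 15 reads (8.40 to 24.7) at 21.5 kb, 1 read at 27.8 kb, 12 reads (6.20 to 21.0) at 29.5 kb and 14 reads (7.65 to 23.5) at 33.1 kb. A further 2 lay downstream, with 3 reads at 19.8 kb and 17 (9.90 to 27.2) at 34.5 kb. The 4 regions with at least 10 reads did not differ beyond their intervals, and 3 of the 4 held a Runx match and 3 an ETS match. The shares over all regions away from promoters with at least 10 reads were 26.4% and 35.8%. Of the 24 regions of the cluster genes, 1 of them at a promoter, 10 held a Runx match, against 25.3% of all regions away from promoters. Mmp7, or matrilysin, had 38 reads (26.9 to 52.2) over 6 regions, the largest of 16 reads.

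Other genes of pericellular proteolysis had a region or a promoter region more often than the 22 Mmp genes. All 34 listed genes had a region, against 78.9% of all protein-coding genes, and 31 had a promoter region, against 64.6%. The median gene was exceeded by 23, against 49.9%, with a list median of 123 reads against 61. Of the 13 Mmp genes outside the chromosome 9 cluster, 12 had a region, 11 had a promoter region and 5 exceeded the median gene. A CpG-rich TSS was found in 19 of the 34, all with a promoter region, and in 6 of the 22 Mmp genes. Per 100 kb of span the list median was 118 reads, against 112 for Mmp genes and 195 for those outside the cluster. The sheddases Adam9, Adam17 and Adam10, which release membrane proteins, had 308, 195 and 180 reads, nearly all at promoters (302, 195 and 176). Among partners and substrates, Vcan, or versican, had 374 reads, Pofut2, which adds fucose to Adamts and Adamtsl proteins, had 299 and the fibrillin gene Fbn1 had 235. All 3 astacins, among them the procollagen C-proteinase Bmp1 with 142 reads, exceeded the median gene. The plasminogen system was lower, with a list median of 47 reads; Serpine2 had 145, Plat 47, Plau 18 and Plaur 16. The membrane inhibitor of Mmp enzymes, Reck, had 73 reads, with 56 at its promoter.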

How the data were processed

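The authors deposited a CPM table of 121574 regions in which every value includes 1 added read, and the total used for scaling is not stated in it. Nearly all deposited CPM values (99.9%, with 84 exceptions) lay within 0.01 read of a whole multiple of 0.0484, the column minimum, and that multiple less 1 was taken as the read number. A second table deposited by the authors gives expected counts for 16382 of the regions, 10 of them not whole, which differed from the recovered reads by at most 0.00155. The CPM file also has 1 value column that matched no sample and was not used.

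Per the labels' protocols, BWA-MEM aligned the reads to mm10 and MACS2 called peaks. STAR 2.6.1d and Partek appear in the submitters' processing notes without a stated role. The transposase offset and the handling of duplicates and of reads with several placements are not given in the sources used here; duplicates, if kept, would make counts higher and intervals too narrow.

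Genes were keyed by symbol, with TSSs of protein-coding transcripts on the autosomes, X and Y, and genes without a region counted as 0. Coordinates are 1-based. Read recovery and assignment were tested on simulated data. Python 3.11.15, pandas 2.3.3, scipy 1.17.1, pysam 0.24.0, samtools 1.23.1 and blastn 2.17.0+ were used. Members, lists, roles and motifs were chosen with earlier results of these data known. Any member could be named; full values went to the 4 members with most reads and the lowest with a region in the Mmp, Adamts and Adamtsl groups, the Timp and cluster genes, Mmp2, Mmp9 and Mmp14. The planned design assumed values per lane, which the tables lack. Alternatives were the promoter window, distance and read limits, the scale, the cluster margin and, for motifs, regions under 10 reads.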

Additional observations from a re-analysis of the deposited data

How the results depend on the processing

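Group medians were recomputed as ratios to the median of all protein-coding genes, 3.64 for Adamts, 1.95 for Adamtsl, 1.07 for Timp and 0.66 for Mmp genes. Per 100 kb of sequence nearest to the TSSs the ratio was 1.26 for Adamts, 1.85 for Timp and 1.23 for Mmp genes, which turned the Mmp direction; span is what this scale divides by. With the largest region of each gene alone, the ratio was 1.51 for Adamts and 0.69 for Adamtsl genes, which turned the Adamtsl direction; the cause was not tested. With genes without a region left out, the ratio was 2.60 for Adamts, 1.29 for Adamtsl and 0.71 for Timp genes, which turned the Timp direction, since each Timp gene has a region and the median of the remaining genes is higher. With regions within 100 kb alone it was 2.93 for Adamts and 1.37 for Adamtsl genes, and without promoter regions nearest to another gene it was 4.27 for Adamts genes. The other ratios ran from 3.58 to 3.94 for Adamts, 1.65 to 2.29 for Adamtsl, 1.03 to 1.25 for Timp and 0.56 to 0.78 for Mmp genes. Counts of members with a promoter region stayed within 1.5 times under all 4 alternatives (Mmp 9 to 13, Adamts 16 to 18, Adamtsl 4 to 5, Timp 3 to 4). The cluster had 96.0 reads and 4.03 regions per 100 kb. With 100 kb on either side it had 186.7 reads and 6.06 regions, and that window takes in the Tmem123 promoter. The genome had 84.3 reads and 4.46 regions per 100 kb with all regions kept. Without regions under 10 reads the cluster had 85.7 reads and 2.01 regions, which the genome values do not match in threshold. Of the 18 cluster regions 9 had fewer than 10 reads, and 39% of all regions had at least 10. With regions under 10 reads included, motif shares in member regions were 10.5% for AP-1, 27.5% for Runx and 34.5% for ETS, in place of 12.8%, 31.9% and 31.9%; this alternative was chosen after seeing the data. Leaving out regions under 10 reads moved the reads of 24 of the 50 genes beyond their counting interval, and the 100 kb limit those of 12. Leaving out a lane could not be run. No paired analysis was possible because the tables give the 4 lanes 1 value and there is 1 group. At this depth a region of 7 reads has an interval of 2.81 to 14.4, so the order of most small regions is not resolved.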
